A study of Mus musculus with 6 samples.

Results

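The metallothionein genes Mt1, Mt2 and Mt3 were taken by name from the deposited gene tables, where they are 3 of 47643 genes. All 3 passed the filter on low counts. The fourth gene of the mouse family, Mt4, was listed at 0 counts in all 6 libraries and was not tested, and a count of 0 allows up to 0.191 to 0.224 CPM (counts scaled to library size) per library, a limit of 3 counts that covers counting error. RNA came from ependymal cells, the ciliated cells that line the brain ventricles, of the ventricular-subventricular zone of adult mice, sorted by flow cytometry 2 days after tamoxifen. The study has 3 libraries of the Ccn1 conditional knockout (cKO), in which tamoxifen led to GFP expression and to loss of Ccn1 in ependymal cells, and 3 of the control. Cells of both genotypes were gated on GFP, with the gate set by hand against wild-type cells. The Cre driver, strain, sex and exact age were not given in the sources used here. Ccn1 encodes a secreted matricellular protein.

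Metallothioneins are small cysteine-rich proteins that bind zinc and copper, buffer free zinc and trap toxic metals such as cadmium. Mt1 and Mt2 are expressed in many tissues and are induced together by zinc through the transcription factor MTF1, which binds metal response elements, and also by glucocorticoids, oxidative stress and cytokines. Mt3, first described as a growth inhibitory factor, is expressed mainly in the brain and responds less to metals. Mt4 is known from stratified squamous epithelia.

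The libraries held 13401499 to 15689579 estimated counts. Ccn1 stood at 28.7 ± 10.4 CPM in cKO cells and 134 ± 20.6 CPM in control cells (SD, n = 3 each), and the groups did not overlap. Its log2 difference was -2.22 ± 0.38 (SE), which edgeR did not call after adjustment over all genes (adjusted p = 0.99999, unadjusted p = 0.000415) and DESeq2 did (adjusted p = 4.15e-06). Control 1 stood apart in having the fewest genes with a count, 12460, against 13024 to 14530 in the other 5 libraries. The 14 ependymal markers were all tested. They summed to 28518 to 29399 CPM in cKO cells and 29567 to 30156 CPM in control cells, without overlap. Most of this sum was Nnat (16838 CPM in cKO cells and 16955 CPM in control cells). Astrocytes and neural stem cells, which also express metallothioneins, share markers with ependymal cells, and their list of 15 summed to 25173 to 26494 CPM in cKO cells and 25259 to 27082 CPM in control cells, most of it Apoe, with 1 gene (Slc7a10) at 0. Endothelial markers summed to 0 to 10.4 CPM in cKO cells and 0 to 0.0731 CPM in control cells, with 7 of 10 at 0 (Cldn5 and Pecam1 among them). Microglial markers summed to 180 to 211 CPM in cKO cells and 181 to 203 CPM in control cells. In cKO cells the sums were 402 to 456 CPM for oligodendrocyte markers, 506 to 1482 CPM for the choroid plexus, 389 to 511 CPM for neurons, 510 to 530 CPM for mural cells and fibroblasts and 0 to 61.8 CPM for blood. In control cells they were 201 to 620 CPM for oligodendrocyte markers, 613 to 961 CPM for the choroid plexus, 288 to 558 CPM for neurons, 294 to 579 CPM for mural cells and fibroblasts and 0.0731 to 6.43 CPM for blood. Most of the neuron sum was Ppp1r1b (434 CPM in cKO cells and 455 CPM in control cells) and most of the mural and fibroblast sum Acta2 (498 CPM in cKO cells and 457 CPM in control cells). Markers at 0 in all libraries included Mog and Sox10 of oligodendrocytes, Rbfox3 of neurons, Aqp1 of the choroid plexus, Myh11 of mural cells, Dcn of fibroblasts and Ptprc of leukocytes. The list for neuroblasts and transit-amplifying cells stood at a sum of 469 to 703 CPM in cKO cells and 719 to 1004 CPM in control cells, without overlap, most of it Cd24a, which ependymal cells also express. The part of these other cells in the metallothionein values was not tested. In such bulk samples, fewer cells of a type and less RNA per cell cannot be told apart.

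The 4 genes lie in a row on the plus strand of chromosome 8 (GRCm38, GENCODE M21). Mt4 runs from 94137197 to 94139031, Mt3 (ENSMUSG00000031760) from 94152607 to 94154146, Mt2 (ENSMUSG00000031762) from 94172664 to 94173568 and Mt1 (ENSMUSG00000031765) from 94179082 to 94180327. The Mt2 gene ends 5513 bases before Mt1 begins, and 18517 bases separate Mt3 from Mt2. The main transcripts of Mt1, Mt2 and Mt3 have 3 exons each and are 549, 511 and 536 bases long. Transcripts of the 3 genes share no stretch of 31 bases with one another, so reads of that length or longer do not match more than 1 of them in full. An antisense gene, Gm45774 (94170748 to 94173412, minus strand), overlaps Mt2 and was not analysed here. It covers 330 of the 573 distinct 31-base stretches of the Mt2 transcripts, and Pip5k1a shares 3 more. Whether the libraries kept strand is not given in the sources used here. Without strand, reads that lie within the shared stretches cannot be assigned to Mt2 or to Gm45774.

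**Figure D1:**
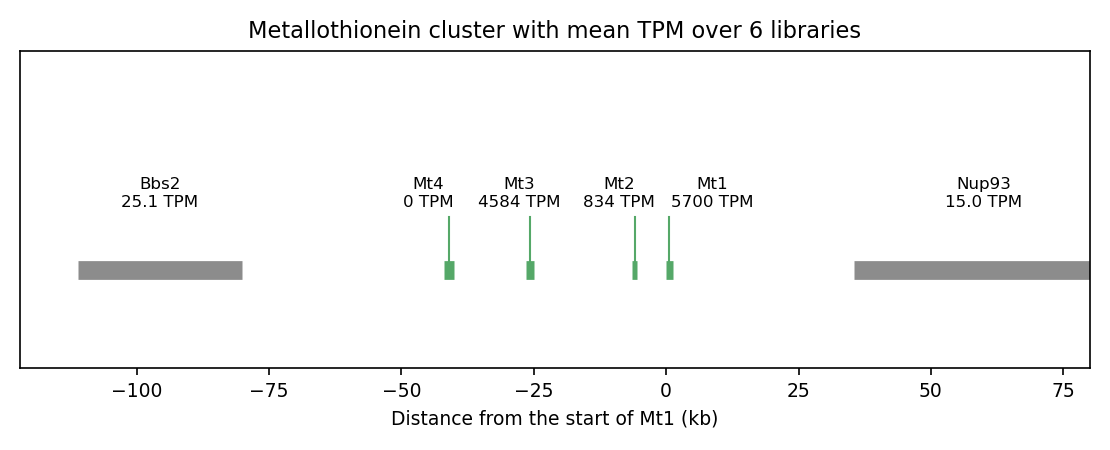
Map of the metallothionein cluster. The x axis is the distance from the annotated start of Mt1 in kb, green bars are metallothionein genes, grey bars are the nearest tested genes on each side (Nup93 runs past the right edge), and labels give the mean TPM over 6 libraries. Mt3, Mt2 and Mt1 stand at 4584, 834 and 5700 TPM, Mt4 at 0, and Bbs2 and Nup93 at 25.1 and 15.0 TPM.

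Promoters of Mt1, Mt2 and Mt3 are shown because Mt1 and Mt2 are known to be induced together through such elements, while Mt3 responds less. Each window is RefSeq sequence of GRCm38.p6, plus strand, from 250 bases before to 50 bases after the annotated start, with matches to the metal response element core in capitals. The core was searched as TGCGCNC and TGCACNC on both strands. The windows are chr8:94178839-94179138 for Mt1, chr8:94172368-94172667 for Mt2 and chr8:94152357-94152656 for Mt3.
Mt1: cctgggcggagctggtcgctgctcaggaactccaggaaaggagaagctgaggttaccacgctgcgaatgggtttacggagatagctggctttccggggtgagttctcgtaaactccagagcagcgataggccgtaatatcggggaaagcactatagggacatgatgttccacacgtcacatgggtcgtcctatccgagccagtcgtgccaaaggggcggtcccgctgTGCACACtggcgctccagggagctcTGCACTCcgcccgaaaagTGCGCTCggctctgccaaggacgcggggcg
Mt2: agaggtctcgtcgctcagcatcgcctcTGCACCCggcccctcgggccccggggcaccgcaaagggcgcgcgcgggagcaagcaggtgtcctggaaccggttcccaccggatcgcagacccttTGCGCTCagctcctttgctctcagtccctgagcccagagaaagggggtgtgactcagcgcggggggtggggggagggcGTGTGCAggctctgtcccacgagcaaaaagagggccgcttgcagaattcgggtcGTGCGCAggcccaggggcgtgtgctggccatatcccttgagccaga
Mt3: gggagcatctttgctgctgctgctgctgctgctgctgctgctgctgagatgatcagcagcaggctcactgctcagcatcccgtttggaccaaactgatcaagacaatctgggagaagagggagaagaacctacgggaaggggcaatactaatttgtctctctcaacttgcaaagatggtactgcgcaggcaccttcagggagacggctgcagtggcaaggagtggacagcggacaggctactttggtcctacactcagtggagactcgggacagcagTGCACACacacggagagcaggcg

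The Mt1 window held 3 cores, at offsets of -23, 2 and 20 bases from the annotated start to the first base of the match. That of Mt2 held 4, at -223, -128, -50 and 4, and that of Mt3 held 1, at 27. Among 32851 RefSeq promoter windows of the same length, 1.97% held at least 3 cores, 0.517% at least 4 and 25.7% at least 1. The Mt2 window alone of the 3 matched the antioxidant response element core TGACNNNGC, at -79, a motif found in 12.4% of all windows. The GC box GGGCGG, found in 35.7% of all windows, matched 3 times in the Mt1 window, the last sharing 1 base with the core at offset 2, and not in those of Mt2 and Mt3. TTCNNNGAA, the STAT motif, and AGAACA, the letters of a glucocorticoid receptor motif, matched none of the 3 windows (8.30% and 19.0% of all windows), nor did CACGTG (7.15%) or TATAAA (13.6%). Near its upstream end the Mt3 window holds 11 CTG repeats in a row, and 7 of the 32851 windows held a CTG or CAG run at least that long. The RefSeq start of Mt2 lies 46 bases before the GENCODE gene start, and that of Mt1 lies 7 bases after it. The offsets and the matches found therefore depend on the annotated start. Sequence outside the windows was not searched, so a motif without a match here may lie beyond them. The matches thus compare these windows and not the whole promoters, and do not show that a gene lacks a motif.

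Mt1 was the most abundant of the 3 genes and Mt2 the least, in each of the 6 libraries. In TPM, which is scaled for transcript length and so allows genes to be compared, Mt1 averaged 5700 ± 454, Mt3 4584 ± 733 and Mt2 834 ± 114 (SD over 6 libraries). Mt1 ranked 14th to 17th among all genes by TPM, Mt3 16th to 21st and Mt2 122nd to 214th. The ferritin subunit genes Fth1 and Ftl1, which store iron, stood nearby at 6087 and 4017 TPM. The sum of the 3 genes was 1.02 to 1.16% of all TPM in cKO cells and 0.996 to 1.28% in control cells.

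Mt1 stood at 5995, 5791 and 5095 TPM in cKO 1, 2 and 3, against 6097, 5166 and 6056 TPM in control 1, 2 and 3. Its lowest value was in cKO 3 and its highest in control 1, and the groups overlapped. Mt3, the brain-enriched member, stood at 4700, 4161 and 4283 TPM in cKO cells and at 6012, 4050 and 4299 TPM in control cells. Control 1 was high, while the other 5 libraries lay close together. Mt2 stood at 890, 932 and 800 TPM in cKO cells and at 677, 740 and 967 TPM in control cells. The control libraries held both its highest value (control 3) and its lowest (control 1), so control 1 was the highest library for Mt1 and Mt3 and the lowest for Mt2 in TPM (in CPM Mt2 was lowest in control 2). The ranges of Mt1 and Mt3 over libraries overlapped, and in control 1 they stood at 6097 and 6012 TPM. Mt2 was below both in every library by a factor of at least 4.45.

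**Figure D2:**
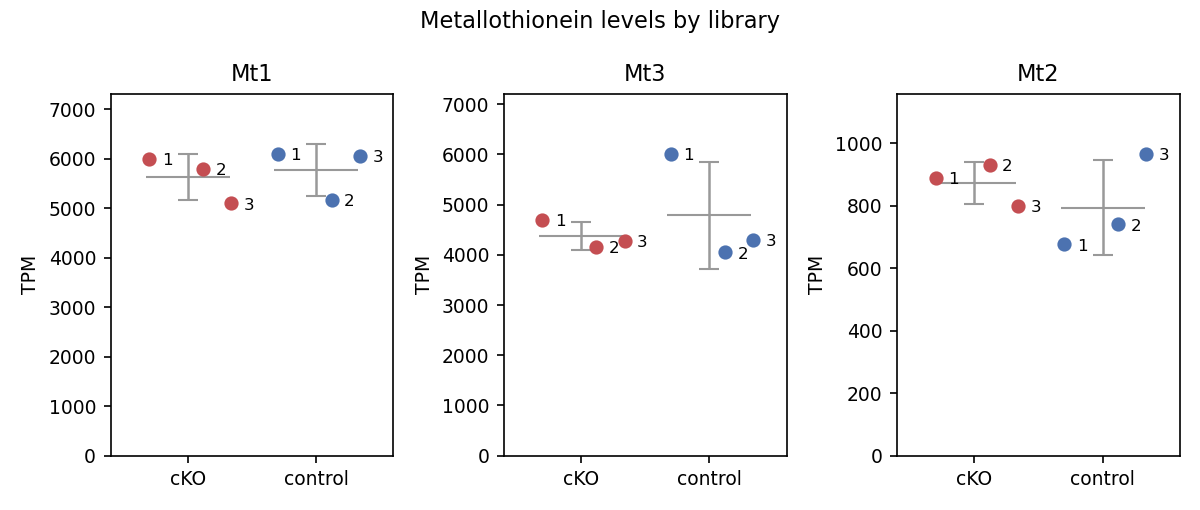
TPM of Mt1, Mt3 and Mt2 (y axes start at 0 and differ in range) in 3 cKO and 3 control libraries, numbered by replicate, with the mean (wide bar) and SD. The groups overlap for each gene, and control 1 is highest for Mt1 (6097) and Mt3 (6012) and lowest for Mt2 (677).

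Over 6 libraries the coefficient of variation (CV) of CPM was 11.4% for Mt1, 11.2% for Mt2 and 22.4% for Mt3. Counting error is small beside this, at 0.635 to 2.01% for any member in any library. Among the 889 genes that averaged 200 CPM or more the median CV was 17.8%, and 17.3% of them had a smaller CV than Mt1, 16.4% than Mt2 and 69.9% than Mt3. In narrower windows, set after the levels were seen, 4.71% of 1614 genes with a mean of 100 to 400 CPM lay below Mt2, and of 133 genes with a mean of 700 to 2800 CPM 33.8% lay below Mt1 and 89.5% below Mt3. The wide spread of Mt3 came with control 1. Without that library the CV was 8.65% for Mt1, 10.9% for Mt2 and 8.82% for Mt3, and 13.8% of the genes averaging 200 CPM or more had a smaller CV than Mt3.

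The first comparison asked whether deletion of Ccn1 went with a change in metallothionein level. The edgeR quasi-likelihood test, fitted across all genes, called 0 of 11574 genes (0%) at 0.05 after Benjamini-Hochberg adjustment, and 0 of the 3 metallothionein genes. At an unadjusted p of 0.05 it gave 318 genes (2.75%), none of them a metallothionein, while DESeq2 called 198 genes (1.63% of 12133) and limma-voom 0, again none a metallothionein. The cKO libraries lay wholly above the controls for 4.99% of tested genes and wholly below for 4.62%, and for 0 of the 3 members in either direction.

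Mt1 averaged 1369 ± 105 CPM in cKO cells and 1422 ± 223 CPM in control cells (SD, n = 3 each). Its log2 difference was -0.055 ± 0.15 (SE, edgeR adjusted p = 0.99999), and the 95% interval of the ratio of cKO to control ran from 0.759 to 1.22. Mt2 averaged 224 ± 10.8 CPM in cKO cells and 205 ± 32.3 CPM in control cells. The log2 difference of Mt2 was 0.13 ± 0.20 (edgeR adjusted p = 0.99999), with a ratio between 0.802 and 1.498. For Mt3 the means were 1061 ± 98.8 CPM in cKO cells and 1182 ± 370 CPM in control cells, a log2 difference of -0.16 ± 0.22 (edgeR adjusted p = 0.99999) and a ratio between 0.632 and 1.27. Each difference was within the spread between libraries, and the intervals still allow changes of up to the bounds given. Control 1 decided the sign for 2 of the 3 genes. Without it the log2 differences were 0.065 for Mt1 and 0.13 for Mt3, while that of Mt2 was 0.093, and none passed the test. By an exact two-sided permutation test of CPM over libraries, p was 0.7 for Mt1, 0.4 for Mt2 and 0.9 for Mt3, and 3 against 3 cannot give less than 0.1. Nothing in the labels says whether the samples came from separate animals, so p-values measure the spread between these samples.

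**Figure D3:**
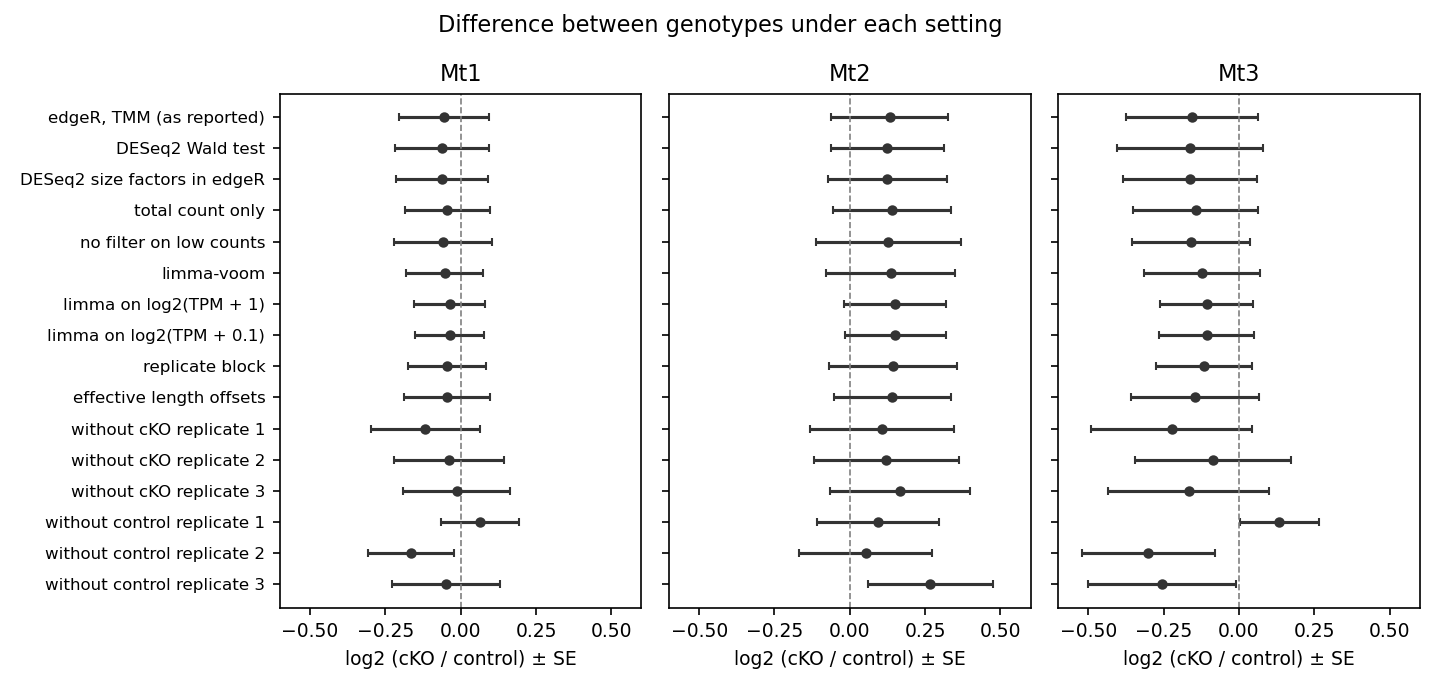
Log2 ratio of cKO to control (x axes) with its SE for Mt1, Mt2 and Mt3 under the reported edgeR test, 9 alternatives and 6 fits that leave out 1 library each (rows). Without control 1 the values of Mt1 (0.065) and Mt3 (0.13) lie above 0, while Mt2 lies above 0 in every row.

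The second comparison took the make-up of the metallothionein total, the share of each gene in the summed TPM of Mt1, Mt2 and Mt3. Mt1 made up 51.7 ± 1.58% of it in cKO cells and 51.0 ± 2.996% in control cells (SD, n = 3 each, p = 0.9 by exact two-sided permutation). Mt3 made up 40.3 ± 1.94% in cKO cells and 41.9 ± 4.64% in control cells (exact permutation p = 0.8), and Mt2 8.04 ± 0.464% and 7.09 ± 1.65% (exact permutation p = 0.4). The 3 shares add up to the whole and are not independent of each other. By library, the Mt2 share was 7.68, 8.56 and 7.86% in cKO cells and 5.29, 7.44 and 8.54% in control cells. The Mt3 share was 40.6, 38.2 and 42.1% in cKO cells and 47.0, 40.7 and 38.0% in control cells. Control 1 had the highest Mt3 share and the lowest shares of Mt1 (47.7%) and Mt2, and the other 5 libraries spanned 50.1 to 53.5% for Mt1, 38.0 to 42.1% for Mt3 and 7.44 to 8.56% for Mt2. Without control 1 the difference in the Mt1 share was -1.02 percentage points (0.647 with it) and that in the Mt3 share was 0.973 (-1.59 with it). For the Mt2 share it was 0.0472 without control 1 and 0.946 with it.

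**Figure D4:**
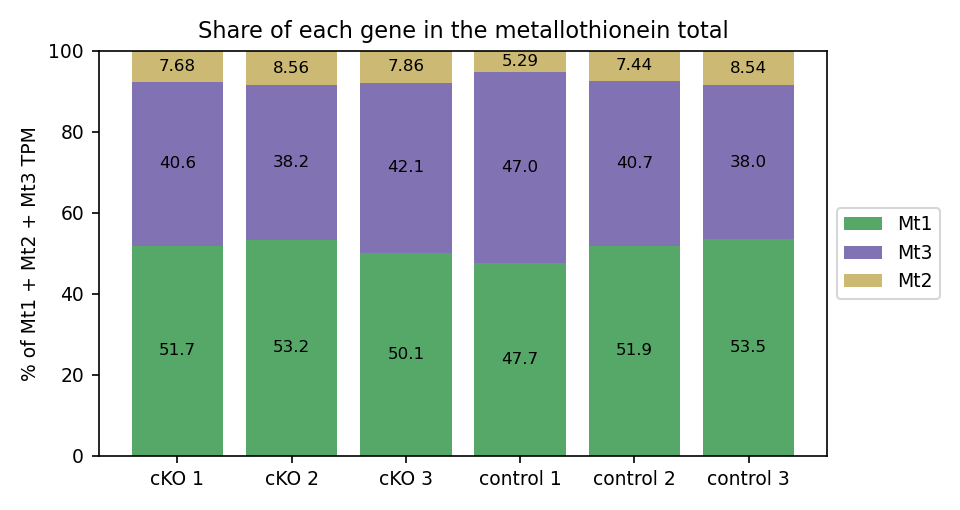
Stacked bars of the percent of Mt1 (bottom), Mt3 (middle) and Mt2 (top) in the summed TPM of the 3 genes (y axis) in each library. Mt1 makes up 47.7 to 53.5% and Mt2 5.29 to 8.56%, with control 1 the lowest for both.

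The third comparison asked whether the genes varied together over the 6 libraries, in 3 pairs. Mt1 and Mt2, the pair known for joint induction, had a Pearson r of 0.24 in log2 CPM (exact permutation p = 0.633, adjusted over the 3 pairs 0.710) and a Spearman rho of 0.37 (exact permutation p = 0.497, adjusted 0.746). Mt1 and Mt3 had an r of 0.85 (exact permutation p = 0.0236, adjusted 0.0708) and a rho of 0.83 (exact permutation p = 0.0583, adjusted 0.175). Mt2 and Mt3 had an r of -0.23 (exact permutation p = 0.710, adjusted 0.710) and a rho of 0.14 (exact permutation p = 0.803, adjusted 0.803). No pair passed the adjustment at 0.05.

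These relations rested on control 1 and, in part, on control 2. Without control 1, Mt1 and Mt2 had an r of 0.91 over 5 libraries (exact permutation p = 0.025, adjusted 0.075) and a rho of 0.90 (exact permutation p = 0.0833, adjusted 0.25). Without control 2, where both genes were low, that r was -0.42 (exact permutation p = 0.492). Leaving out both, which were the farthest from the median of Mt1, gave an r of 0.84 over 4 libraries (exact permutation p = 0.167). The r of Mt1 and Mt3 was 0.43 without those 2 libraries (exact permutation p = 0.583) and 0.57 over all libraries in log2(TPM + 1) (exact permutation p = 0.194). Leaving out the highest and lowest libraries of Mt1 narrows its range, which can by itself lower r. With 4 libraries there are also few pairings to permute, so that fit cannot decide whether the relation holds. Without control 1 alone the r of Mt1 and Mt3 was 0.68 (exact permutation p = 0.2). For Mt2 and Mt3, r was 0.51 without control 1 (exact permutation p = 0.425), -0.82 without control 2 (exact permutation p = 0.0917) and -0.12 without both (exact permutation p = 0.958). Taken as deviations from the genotype means, r was 0.36 for Mt1 and Mt2, 0.85 for Mt1 and Mt3 and -0.15 for Mt2 and Mt3. Each genotype has 3 libraries, too few for an r of its own.

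**Figure D5:**
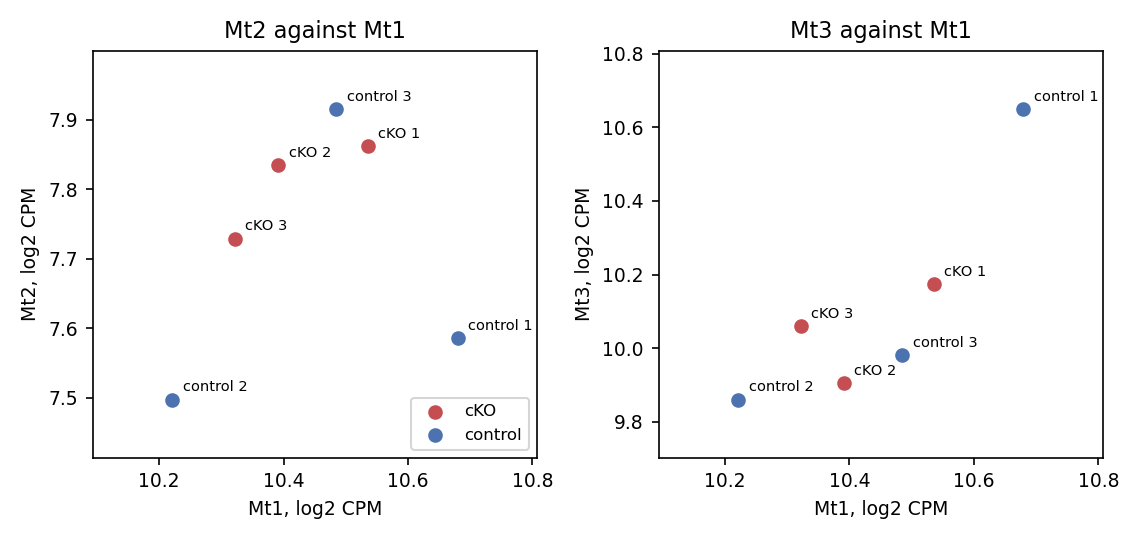
Mt2 (left) and Mt3 (right) against Mt1 in log2 CPM, with 1 point per library, cKO in red and control in blue. In the left panel control 1 lies apart at high Mt1 and low Mt2 while the other 5 libraries rise together (r = 0.91), and in the right panel control 1 lies at the top of both axes.

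The genes most like each member were ranked by r in log2 CPM over 6 libraries, among the 3479 genes that averaged 50 CPM or more. Mt3 ranked 107th and Mt2 1348th among the genes most like Mt1, and 52 genes had an r of at least 0.9 with it. The closest to Mt1 were Serf2 (r = 0.99), Atp6v1f, a subunit of the vacuolar proton pump (0.99), Tpt1 (0.98), Znhit1 (0.97) and the transcription elongation factor gene Elof1 (0.97). The closest to Mt3 were the mitochondrial ribosome gene Mrpl30 (0.99), the ribosomal protein gene Rps18 (0.99), the ATP synthase subunit gene Atp5l (0.99), Mapre1, which encodes a microtubule end-binding protein (0.99), and Romo1 (0.99). All 10 had their highest CPM in control 1, with Rps18 for example at 123, 90.9 and 105 CPM in cKO cells and 195, 97.0 and 103 CPM in control cells. They were picked for likeness to Mt1 or Mt3, both highest in control 1, so the shared peak follows from the ranking and is no separate result. Short genes were taken as those with a count whose longest annotated transcript was at most 700 bases, a limit chosen after the values were seen. Mt2, Mt3 and genes with mt- symbols were left out, and Mt1 is outside the limit, with a transcript of 1085 bases. The 1743 short genes took 2.24, 2.02 and 2.35% of counts in cKO cells and 2.76, 1.92 and 2.06% in control cells, highest in control 1. In TPM they made up 9.13, 8.57 and 9.76% in cKO cells and 10.3, 8.42 and 8.85% in control cells. The part of this difference in the values of Mt1 and Mt3 was not tested.

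The 5 genes closest to Mt2 were others, and none of them had its highest value in control 1. This too follows from the ranking, since Mt2 itself was not highest there. They were Prdx3, a mitochondrial peroxiredoxin gene (r = 0.99), Il18, an interleukin gene (0.98), Mrpl24, a mitochondrial ribosome gene (0.98), Zfp612, a zinc finger gene (0.97) and Rd3 (0.97). Prdx3 stood at 173, 179 and 147 CPM in cKO cells and 111, 103 and 199 CPM in control cells, low in control 1 and control 2 as Mt2 was. With 6 libraries and so many genes, values of r this high are a description of rank and carry no test.

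In the lists around the members' regulation edgeR called 0 genes after adjustment and limma-voom 0, while DESeq2 called 3, Slc30a7, Cebpd and Jund. They were 1 of 7 zinc exporters, 1 of 12 STAT3 genes and 1 of 19 heat shock genes that DESeq2 tested. Over all genes it called 1.63%. An edgeR unadjusted p under 0.05 was found for 1 of 6 tested zinc exporters, 1 of 15 iron genes and 3 of 12 STAT3 and cytokine genes. It was also found for 1 of 18 heat shock and immediate early genes, and for 0 in the other lists of this kind. Over all tested genes the share was 2.75%. The metal sensing list held Mtf1, Mtf2, Phf19, Slc30a1 and Slc39a10, of which Slc30a1 and Slc39a10 are also counted in the zinc transporter lists. Of the 5, 4 were tested, 2 with a log2 difference above 0 and 2 below (median 0.46, beside 0.0044 over all tested genes). The SE of these differences ran from 0.64 (Mtf2) to 2.56 (Slc30a1), so the median carries little weight. Mtf1, the zinc-sensing transcription factor of Mt1 and Mt2, had 396, 43 and 102 estimated counts in cKO cells and 323, 258 and 296 in control cells, so it was variable in cKO cells. The plasma membrane zinc exporter gene Slc30a1, known as another target of MTF1, had 82, 193 and 110 counts in cKO cells and 0, 10 and 0 in control cells. The groups of Slc30a1 did not overlap, and it did not pass the test (edgeR unadjusted p = 0.0761, adjusted p = 0.99999). Of the 6 tested zinc exporters and vesicle loaders 4 were above 0 and 2 below (median 0.26). Slc30a7, which loads zinc into the secretory pathway, had 0 counts in each cKO library and 335, 141 and 409 counts in control cells, the opposite direction to Slc30a1. It was not called by edgeR (unadjusted p = 0.00386, adjusted p = 0.99999) and was called by DESeq2 (adjusted p = 2.18e-08). Counts of 0 beside high counts also occurred within a genotype. In control 1, 2 and 3, Slc30a5 of the same list had 0, 534 and 677 counts, and the zinc importer gene Slc39a7 had 0, 972 and 462. The source of the 0 counts of Slc30a1 and Slc30a7 was not tested. Of the 11 tested zinc importers 4 were above and 7 below (median -0.28), with Slc39a12, a glial zinc importer, at 117 ± 30.6 TPM in cKO cells and 145 ± 30.2 TPM in control cells, and Slc39a1 at 78.5 ± 5.56 and 77.8 ± 14.4 TPM.

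Of 13 tested copper handling genes 5 were above 0 and 8 below (median -0.15), with Sod1, the copper-zinc superoxide dismutase gene, at 1545 ± 94.2 TPM in cKO cells and 1691 ± 208 TPM in control cells, and the copper chaperone gene Atox1 at 163 ± 6.22 and 189 ± 74.1 TPM. Of 15 tested iron handling genes 8 were above and 7 below (median 0.032). Fth1 stood at 6096 ± 647 TPM in cKO cells and 6079 ± 376 TPM in control cells, and Ftl1 at 4006 ± 205 and 4027 ± 205 TPM. Pcbp1, an iron chaperone gene, had the smallest p of the list, at 25.1, 55.4 and 43.8 TPM in cKO cells and 61.6, 85.3 and 75.8 TPM in control cells, without overlap and without passing the adjustment (edgeR unadjusted p = 0.0456, adjusted p = 0.99999).

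Of 16 tested glucocorticoid response genes 8 were above 0 and 8 below (median 0.12), with Tsc22d3, the gene of the glucocorticoid-induced leucine zipper, at 281 ± 129 TPM in cKO cells and 236 ± 89.7 TPM in control cells. Of 21 tested NRF2 and oxidative stress genes 8 were above and 13 below (median -0.098), with the glutathione transferase gene Gstm1 at 3538 ± 502 TPM in cKO cells and 3792 ± 132 TPM in control cells. Of 12 tested hypoxia genes 6 were above and 6 below (median -0.0062). Of 18 tested heat shock and immediate early genes, which also respond to cell dissociation, 10 were above and 8 below (median 0.083). Jund, the gene of an AP-1 transcription factor, had the smallest p of that list, at 150, 140 and 120 TPM in cKO cells and 259, 321 and 351 TPM in control cells, without overlap. Its log2 difference was -1.18 ± 0.16 (SE), which edgeR did not call (unadjusted p = 6.73e-05, adjusted p = 0.779) and DESeq2 did (adjusted p = 4.35e-13). The heat shock protein gene Hspa8 stood at 2540 ± 504 TPM in cKO cells and 2468 ± 318 TPM in control cells.

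The list of STAT3 and cytokine genes had 4 of 12 tested members above 0 and 8 below (median -0.42), and 3 of the 12 had an edgeR unadjusted p under 0.05, beside 2.75% of all tested genes. Cntf, the gene of a glial cytokine that acts through STAT3, stood at 60.5, 68.9 and 81.1 TPM in cKO cells and 139, 108 and 148 TPM in control cells, and the cytokine receptor kinase gene Jak2 at 4.26, 3.23 and 4.48 TPM against 6.58, 10.4 and 19.975 TPM. For both genes the cKO libraries lay below all controls. Cebpd, a transcription factor gene induced by STAT3, had 48, 72 and 64 counts in cKO cells and 0 in each control. None passed the adjustment over all genes in edgeR (adjusted p = 0.99999 for each), and DESeq2 called Cebpd (adjusted p = 0.00661). In this list too a count of 0 occurred within a genotype, with Stat3 at 0, 546 and 472 counts in cKO 1, 2 and 3. The source of the 0 counts of Cebpd was not tested.

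Neighbouring genes of the cluster were far less abundant than Mt1, Mt2 and Mt3. On the far side of Mt4, Bbs2, a gene of the ciliary BBSome, stood at 60.4, 23.3 and 15.6 TPM in cKO cells and 13.1, 17.4 and 21.02 TPM in control cells, high in cKO 1. On the side of Mt1, Nup93, a nuclear pore gene, stood at 5.86, 17.2 and 5.89 TPM in cKO cells and 11.4, 20.5 and 28.8 TPM in control cells. Neither passed the test (edgeR unadjusted p = 0.118 and 0.159, adjusted p = 0.99999 for both), and the groups overlapped for each.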

How the data were processed

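RNA of 6 sorted samples was analysed, with genotype and replicate number taken from each title. Per the labels, the molecule is total RNA while the sample description names cytoplasmic RNA. The submitters' processing notes name CASAVA 1.8, cutadapt 1.11 and kallisto 0.42.5. The genome build, annotation, strand setting and the way of summing transcripts were not given in the sources used here. Per the file headers, the deposited tables hold an estimated count, not normalized, and a TPM value for each gene. They list genes and not transcripts, so splice forms were not analysed.

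Estimated counts were rounded to whole numbers, filtered with filterByExpr (11574 of the 19684 genes with a count), scaled with TMM and put through edgeR 4.0.16 (quasi-likelihood, robust, genotype as the only term) in R 4.3.3, with Benjamini-Hochberg adjustment over all tested genes. The SE is the log2 difference divided by the root of F. CPM uses TMM-scaled library sizes and log2 CPM a prior count of 2. Shares and correlations were tested by exact permutation (20 assignments, 720 pairings) with scipy 1.17.1. Alternatives used DESeq2 1.42.0, limma 3.58.1, other scalings and filters, TPM, the replicate number as a block, each library left out in turn and, added after the data had been seen, effective length offsets. Of the gene IDs, 99.1% matched GENCODE M21. Named genes were the members, Ccn1, the 5 genes most like each member (symbols that are only model numbers left out), and from each list the most abundant and the one with the smallest p, of which a part is given. Jak2 and the Gm45774 overlap were named after their values were seen. The members and lists were chosen with earlier results of these data known.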

Additional observations from a re-analysis of the deposited data

How the results depend on the processing

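The log2 difference between cKO and control kept its sign and stayed short of the threshold in 9 of 9 alternatives for Mt1 (-0.062 to -0.036), Mt2 (0.12 to 0.15) and Mt3 (-0.16 to -0.11). Leaving out 1 library gave -0.16 to 0.065 for Mt1 and -0.30 to 0.13 for Mt3, both turning above 0 without control 1, and 0.052 to 0.27 for Mt2. For Ccn1 the values were -2.27 to -2.21 over the alternatives and -2.50 to -1.97 without 1 library; its adjusted p passed 0.05 with DESeq2 only (-2.22). The count of genes called was 0 in 8 of 9 alternatives and in each of 6 fits without 1 library, and 198 with DESeq2 (110 higher and 88 lower in the cKO). The difference in share ran from -1.02 to 1.88 percentage points for Mt1 (-0.121 without cKO 2), 0.0472 (without control 1) to 1.67 for Mt2 and -3.55 to 0.973 for Mt3 without 1 library, and on estimated counts it was 0.620, 0.996 and -1.62. Without 1 library r ran from -0.42 to 0.91 for Mt1 and Mt2, from 0.68 to 0.91 for Mt1 and Mt3 and from -0.82 to 0.51 for Mt2 and Mt3. For Mt1 and Mt3, r was 0.57 in log2(TPM + 1) and 0.43 without the 2 libraries farthest from the median, and no pair passed the adjusted threshold in any setting. Settings that leave out libraries have fewer pairings to permute, which limits how small their p can be. The cause of the dependence on single libraries was not tested.

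In the fit with a replicate block 0 genes were called and the log2 differences were -0.046, 0.14 and -0.12 for Mt1, Mt2 and Mt3 and -2.27 for Ccn1. Same-numbered samples did not deviate together (r of 0.008 to 0.031 across tested genes). Such values cannot show whether the samples were paired in the design. Depth does not limit the members, whose counts ran from 2476 to 24791. The exact permutation tests of 3 against 3 cannot give a p under 0.1, a floor that does not apply to edgeR or DESeq2.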
